A study of Sus scrofa with 12 samples.

Results

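Eph receptors and ephrins were examined in RNA sequencing of pig induced pluripotent stem cells that carried a NANOG reporter. The genes were a list of 9, taken by symbol from the 24358 genes of the expression tables. The list holds 6 receptors (EPHA1, EPHA2, EPHA4, EPHB2, EPHB3 and EPHB4) and 3 ephrins (EFNA1, EFNB1 and EFNB2). The members were listed by family, with earlier results of these data known, and EPHA2 was listed as higher in knock-in than in WT cells. That EPHA2 difference is therefore given below as a description, with no test.

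PC-iPS cells are pig iPS cells made from pericytes and kept on feeder cells in a medium called LCDMV. The 12 libraries fell into 4 groups of 3: WT PC-iPS cells, knock-in cells sorted for the NANOG tdTomato reporter, and knock-in cells given Activin A or SB431542. Activin A activates the Activin/SMAD pathway, and SB431542 inhibits the TGF-β/Activin receptor kinases. The comparisons asked how expression differs with the NANOG knock-in and how it differs between activation and inhibition of the pathway.

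The knock-in placed a FLAG tag, a P2A peptide and tdTomato behind NANOG, whose target sequence occurs at loci on both chromosome 1 and chromosome 5. A puromycin resistance gene with its own promoter came with it. Knock-in lines came from separately transfected cultures, were not single clones, and could hold cells with different numbers of tagged alleles or none. They were selected with puromycin and sorted for tdTomato, so they differ from WT cells by selection and sorting as well as by the tag. Per the study's methods, cytokine experiments used LCDMV without LIF, whereas the labels name LCDMV for every library. The labels give no dose or duration for Activin A or SB431542. The study's methods give doses for its screens, without saying which was used for the sequenced cells. Its cytokine screen was run without feeder cells, on a Matrigel coating. Whether the sequenced treated cells grew with feeder cells is not stated, so feeder state could differ between groups. Feeder cells were removed by letting them attach for 1 hour before the suspended cells were collected.

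Eph receptors are the largest family of receptor tyrosine kinases, and their ligands, the ephrins, are themselves bound to the cell surface, so that signalling needs contact between cells. A ephrins are held by a lipid anchor and mainly bind EphA receptors, while B ephrins span the membrane and mainly bind EphB receptors, with EPHA4 able to bind both classes. Signals run forward into the receptor's cell and in reverse into the ephrin's cell, and they guide cell sorting, boundary formation, adhesion and repulsion in embryos and epithelia.

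All 9 genes were detected in all 12 libraries. Levels are in FPKM, fragment counts scaled to gene length and to library size. EFNB1 was by far the most abundant, at 95.4 to 153.5 FPKM, and made up 54.2% to 68.8% (median 60.2%) of the summed FPKM of all 8 ephrins. EPHB2 came next on average in each group, at 17.2 to 30.8 FPKM. EPHA1 was the lowest on average in each group, at 1.36 to 3.95 FPKM. Between these, the order changed with the group: EFNB2 had rank 7 in WT cells and rank 3 in SB431542, and EFNA1 had rank 6 in WT cells, rank 3 in Activin A and rank 8 in SB431542. Among neighbours in this order, EFNB1 and EPHB2 did not overlap in any group, and the other neighbours mostly did. In WT cells the ranges over 3 libraries of every neighbouring pair below EPHB2 overlapped.

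**Figure D1:**
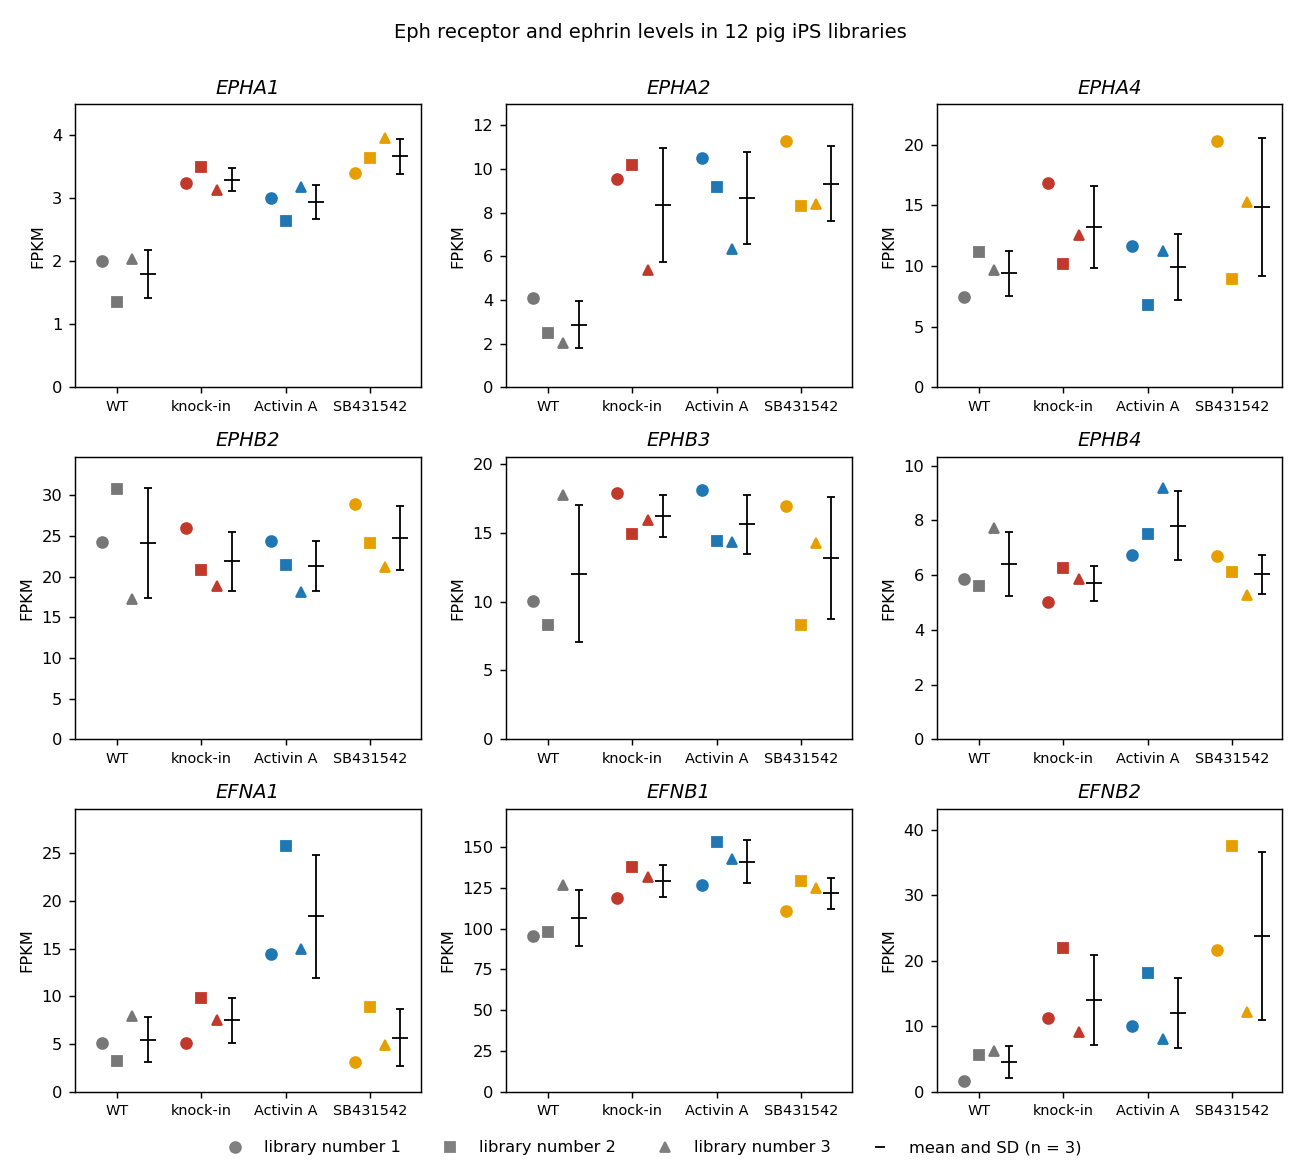
Levels of 6 Eph receptors and 3 ephrins in FPKM (vertical axes, each from 0) in 4 groups of 3 libraries; circles, squares and triangles are library numbers 1, 2 and 3, and the black bars are the mean and SD (n = 3). EPHA1, EPHA2 and EFNB2 lie higher in the 9 knock-in libraries than in the 3 WT libraries, and EFNA1 is highest in Activin A.

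Several facts of the whole series touch these values. NANOG stood at 9.71 to 27.6 FPKM in WT, 52.0 to 101 in knock-in, 109 to 195 in Activin A and 11.8 to 27.2 in SB431542 libraries; its 1 identifier is not tied to either locus, so these values are uncertain to that extent. SMAD7, a target of the pathway, was at 6.67 to 8.07 FPKM with Activin A and 1.11 to 1.75 with SB431542. Of 16 pluripotency markers with an identifier, DPPA2, ZFP42 and GDF3 were at 0 in all 12 libraries, TFCP2L1 and PRDM14 were under 0.1 FPKM, and POU5F1 had no identifier with its symbol, while SOX2 was at 39.1 to 71.5 FPKM. LIN28A was at 32.8 to 498 FPKM, KLF4 at 53.7 to 96.9, OTX2 at 53.5 to 93.8 and DNMT3B at 17.0 to 33.9. LIN28B was at 10.7 to 30.0, SALL4 at 10.1 to 18.3 and ESRRB at 0.95 to 7.69, and DPPA5 and TDGF1 reached at most 0.60. The markers summed to 285 to 345 FPKM in WT, 454 to 676 in knock-in, 437 to 634 in Activin A and 489 to 778 in SB431542 libraries. Summed levels of 12 fibroblast and feeder markers were 113 to 162 FPKM in WT, 182 to 231 in knock-in, 224 to 273 in Activin A and 130 to 169 in SB431542 libraries. Those of 10 pericyte markers were 30.0 to 33.2 in WT, 54.3 to 57.7 in knock-in, 46.3 to 53.7 in Activin A and 62.9 to 65.2 in SB431542 libraries. The markers did not all move with their sum. Of 10 tested fibroblast markers, 6 were higher in knock-in than in WT without overlap (19% of all genes) and 1, COL1A1, was lower (16.7%). Of 9 tested pericyte markers, 3 (ACTA2, PDGFRB and ANPEP) were higher without overlap and 0 lower. MCAM stayed at 8.93 to 12.5 FPKM in WT and 9.59 to 11.5 in knock-in libraries. Depth relative to knock-in library 1, estimated from the commonest ratio of values under 0.3 FPKM, was 0.566 to 0.634 in WT and 0.730 to 1 in the other 9 libraries. The part of these differences in the results below was not tested. In bulk RNA, a change in the share of cells of a type and a change in RNA per cell cannot be told apart.

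EPHA2 is a receptor of A ephrins that is abundant in many epithelia. In WT libraries 1, 2 and 3 it was at 4.06, 2.49 and 2.01 FPKM. Knock-in libraries 1, 2 and 3 had 9.55, 10.2 and 5.36 FPKM. The groups did not overlap, and the mean of 8.37 ± 2.62 (SD, n = 3) was 2.93 times the WT mean of 2.86 ± 1.07. This is the difference by which the gene was listed, so no test is given.

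EPHA2 lay in a similar range under both treatments. It was at 10.5, 9.16 and 6.35 FPKM in Activin A libraries 1, 2 and 3. It was at 11.3, 8.32 and 8.38 FPKM in the SB431542 libraries. The treated groups overlapped, and all 6 treated libraries lay above the highest WT library, although they come from another table and were normalized separately. Between Activin A and SB431542 the log2 difference was -0.11 (SE 0.20, 95% interval -0.58 to 0.36, adjusted p = 0.851, limma with Benjamini-Hochberg adjustment). It turned to 0.0769 without Activin A library 3 and to 0.0232 without SB431542 library 1. The ranges of NANOG in the same libraries, given above, did not overlap. EPHA2 lies on chromosome 6 from 75251465 to 75279364 in the RefSeq annotation of Sscrofa11.1.

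EPHA1, another receptor of A ephrins, had low levels throughout. WT libraries 1, 2 and 3 gave 2.00, 1.36 and 2.04 FPKM. Knock-in libraries gave 3.25, 3.50 and 3.14 FPKM. Every knock-in library was above every WT library. The log2 difference was 0.63 (SE 0.15, 95% interval 0.27 to 0.98), and the adjusted p was 0.0522 by limma, so EPHA1 passed neither the p threshold of 0.05 nor the fold threshold of 1 on the log2 scale. With the pseudocount of 1 added here, the fold change of so low a gene is understated; the ratio of the mean FPKM was 1.83. Activin A libraries 1, 2 and 3 gave 3.01, 2.65 and 3.18 FPKM, and SB431542 libraries gave 3.41, 3.65 and 3.95. All 6 were above the highest WT library, with every SB431542 library above every Activin A library. That last difference was -0.24 on the log2 scale (SE 0.11, limma adjusted p = 0.419). EPHA1 lies on chromosome 18 from 6843305 to 6860976.

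EPHA4, which binds ephrins of both classes, was at 7.42, 11.14 and 9.64 FPKM in the WT libraries. Knock-in libraries 1, 2 and 3 had 16.9, 10.2 and 12.6 FPKM. Knock-in library 2 lay below WT library 2, so the groups overlapped, and the log2 difference of 0.44 (SE 0.21) had a limma adjusted p of 0.215; it was 0.26 without knock-in library 1 and 0.30 without WT library 1. In Activin A libraries 1, 2 and 3 the level was 11.7, 6.79 and 11.3 FPKM. In SB431542 libraries it was 20.3, 8.96 and 15.3 FPKM. The groups overlapped because SB431542 library 2 lay below Activin A libraries 1 and 3. At each number SB431542 was still above Activin A, by 1.74, 1.32 and 1.36 times. Without pairing, the log2 difference was -0.50 (SE 0.31, limma adjusted p = 0.545). It was -0.26 without SB431542 library 1, -0.28 without Activin A library 2 and -0.81 without SB431542 library 2. With library number as a block the difference over all 6 libraries had an SE of 0.10 and a limma adjusted p of 0.0779, still above the threshold. EPHA4 lies on chromosome 15 from 123350867 to 123501872.

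The 3 listed receptors of B ephrins overlapped between knock-in and WT cells. EPHB2, the most abundant receptor of the list, was at 24.3, 30.8 and 17.2 FPKM in WT and at 25.9, 20.9 and 18.9 FPKM in knock-in libraries 1, 2 and 3. The WT range enclosed the knock-in range, and the log2 difference was -0.11 (95% interval -0.61 to 0.39). It turned to 0.08 without WT library 2. With Activin A EPHB2 was at 24.4, 21.4 and 18.1 FPKM, and with SB431542 at 29.0, 24.2 and 21.2 FPKM. SB431542 was above Activin A at each number, by 1.19, 1.13 and 1.17 times, a nearly constant but small step (log2 difference -0.21, limma adjusted p = 0.593 without and 0.126 with the block). Without single libraries that difference was -0.31 (SB431542 library 3) to -0.094 (SB431542 library 1), with -0.10 without Activin A library 3. EPHB2 lies on chromosome 6 from 80649098 to 80849979, and a long non-coding RNA of the RefSeq annotation lies within its span; how the counting treated strand is not given in the sources used here.

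EPHB3 was at 10.1, 8.33 and 17.7 FPKM in WT libraries and at 17.9, 14.9 and 15.9 FPKM in knock-in libraries. WT library 3 reached the knock-in level and the other WT libraries did not. The log2 difference was 0.46 (SE 0.25, limma adjusted p = 0.257), with 0.26 without WT library 2 and 0.76 without WT library 3. Activin A libraries had 18.1, 14.4 and 14.3 FPKM and SB431542 libraries 16.9, 8.28 and 14.2, so that SB431542 library 2 alone stood low and the groups overlapped. The log2 difference of 0.28 (SE 0.25, limma adjusted p = 0.672) was 4.2e-06 without that library, 0.17 without Activin A library 1 and 0.48 without SB431542 library 1. EPHB3 lies on chromosome 13 from 122467561 to 122488296.

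EPHB4, the receptor that pairs with ephrin-B2 in vessels, was at 5.85, 5.61 and 7.73 FPKM in WT and at 5.01, 6.27 and 5.85 FPKM in knock-in libraries. These overlapped, with a log2 difference of -0.13 (SE 0.16, limma adjusted p = 0.623) that was -0.0088 without WT library 3, -0.06 without knock-in library 1 and -0.21 without WT library 2. It was at 6.74, 7.52 and 9.18 FPKM with Activin A and at 6.69, 6.12 and 5.29 FPKM with SB431542. Every Activin A library was above every SB431542 library, but numbers 1 of the groups were almost equal. The log2 difference of 0.32 (SE 0.14) had a limma adjusted p of 0.407, and it was 0.21 without Activin A library 3. EPHB4 lies on chromosome 3 from 8671052 to 8689778.

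EFNB2, a membrane-spanning ephrin that is a ligand of EPHB4 and other EphB receptors, had the widest range relative to its level among the 9 listed genes. WT libraries 1, 2 and 3 gave 1.68, 5.63 and 6.23 FPKM. Knock-in libraries gave 11.2, 21.9 and 9.06 FPKM. The groups did not overlap, and the mean rested on widely spread libraries: 14.05 ± 6.88 against 4.51 ± 2.47 FPKM (SD, n = 3), a ratio of 3.11. The log2 difference was 1.48 (SE 0.44, 95% interval 0.46 to 2.51). It was larger than the fold threshold, and its limma adjusted p of 0.0818 did not pass.

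Under the treatments EFNB2 lay higher with SB431542 at each number. Activin A libraries 1, 2 and 3 gave 9.96, 18.1 and 8.11 FPKM. SB431542 libraries gave 21.6, 37.5 and 12.1 FPKM. The groups overlapped, while SB431542 was at 2.17, 2.07 and 1.49 times the Activin A level of the same number. The log2 difference of -0.86 had an SE of 0.43 and a limma adjusted p of 0.456 without pairing; it was -0.48 without SB431542 library 2 and -1.25 without SB431542 library 3. With library number as a block the SE was 0.12 and the adjusted p 0.0449; the size stayed under the fold threshold, so EFNB2 was not called. Against the untreated knock-in library of the same number, which lies in the other table, SB431542 was at 1.93, 1.71 and 1.34 times. Activin A was at 0.89, 0.82 and 0.90 times. All 9 knock-in libraries, treated or not, lay above the highest WT library. EFNB2 lies on chromosome 11 from 74188337 to 74232768.

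EFNA1, an A ephrin and a ligand of EPHA2, went the other way between the treatments. Activin A libraries 1, 2 and 3 gave 14.4, 25.8 and 14.9 FPKM. SB431542 libraries gave 3.12, 8.92 and 4.92 FPKM. Every Activin A library was above every SB431542 library, at 4.63, 2.89 and 3.03 times the level of the same number. The means were 18.4 ± 6.42 and 5.65 ± 2.97 FPKM (SD, n = 3), a ratio of 3.25. The log2 difference was 1.59 (SE 0.36, 95% interval 0.74 to 2.44), with a limma adjusted p of 0.169 that did not pass. With library number as a block, EFNA1 passed both thresholds (SE 0.12, 95% interval 1.27 to 1.90, limma adjusted p = 0.0168).

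In knock-in libraries without treatment EFNA1 was at 5.07, 9.84 and 7.55 FPKM, between the treatments at each number. Activin A was at 2.84, 2.62 and 1.97 times that level and SB431542 at 0.61, 0.91 and 0.65 times. WT libraries gave 5.14, 3.25 and 7.94 FPKM and overlapped with knock-in (log2 difference 0.42, SE 0.31, limma adjusted p = 0.401). That difference was 0.16 without WT library 2, 0.23 without knock-in library 2, 0.64 without knock-in library 1 and 0.69 without WT library 3. Whether the difference between the treatments exceeds that between knock-in and WT was not tested. EFNA1 lies on chromosome 4 from 94666457 to 94673442.

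EFNB1, a ligand of EphB receptors on chromosome X (54947339 to 54961403), moved little for its high level. WT libraries had 95.4, 98.0 and 127 FPKM and knock-in libraries 119, 138 and 132 FPKM, overlapping through WT library 3. The log2 difference was 0.28 (SE 0.13, limma adjusted p = 0.196). Activin A libraries had 127, 153.5 and 143 FPKM and SB431542 libraries 111, 129 and 125 FPKM. At each number Activin A was higher, by 1.14, 1.19 and 1.14 times. The limma adjusted p was 0.425, and 0.0792 with the block.

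**Figure D2:**
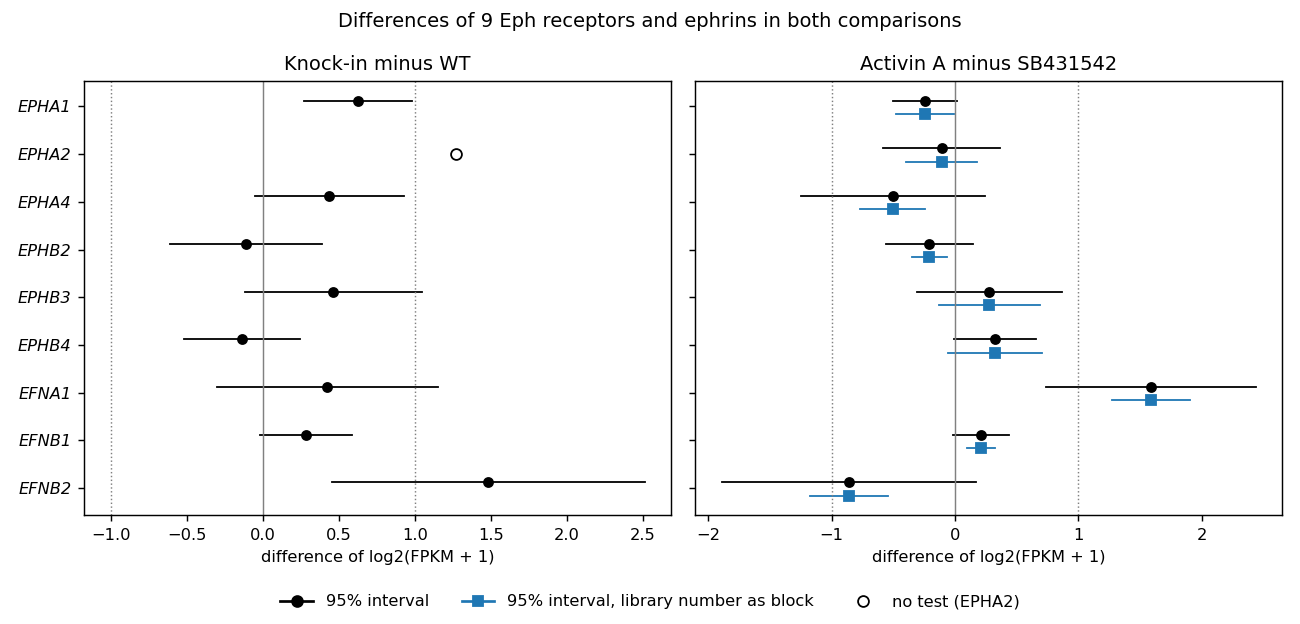
Difference of log2(FPKM + 1) of the 9 genes between knock-in and WT (left) and between Activin A and SB431542 (right), with 95% intervals from limma; blue squares use library number as a block, the open circle is EPHA2, which was not tested, and dotted lines mark the fold threshold. EFNA1 with the block lies beyond the threshold on the right, and of the intervals without the block that of EFNB2 is the widest in both comparisons.

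Counted over the list, 0 of the 8 tested genes were called between knock-in and WT by limma (absolute log2 difference of at least 1 and adjusted p of at most 0.05), where 2.31% of 14014 genes were. At an unadjusted p under 0.05 there were 2, EPHA1 and EFNB2, against 28.6% of all genes. The same 2 genes did not overlap with WT, and both were higher, as were 19% of all genes; 0 of 8 were lower without overlap, where 16.7% of all genes were. Differences above 0 were found for 6 of the 8, against 49.8% of all genes, and their median of 0.43 compares with a median of -0.001 over all genes. By the exact two-sided permutation test over libraries both genes had p = 0.1, the smallest that 3 against 3 libraries allow.

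Between Activin A and SB431542, 0 of 9 were called by limma, where 0.0929% of 13999 genes were, and 1 (EFNA1) had an unadjusted p under 0.05, against 12.8% of all genes. EFNA1 and EPHB4 were higher without overlap, as were 9.19% of all genes, and EPHA1 was lower, as were 10.8%. These 3 had p = 0.1 in the exact two-sided permutation test. With library number as a block, 1 of 9 was called, against 0.707% of all genes, and 2 of 9 (EFNA1 and EFNB2) had an adjusted p of at most 0.05, against 2.88%. By unadjusted p with the block there were 6 of 9, against 23.7% of all genes: EFNA1 and EFNB1 higher with Activin A, and EFNB2, EPHA4, EPHB2 and EPHA1 higher with SB431542. The block was applied because libraries of the same number deviated together from their group means in both treatments.

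**Figure D3:**
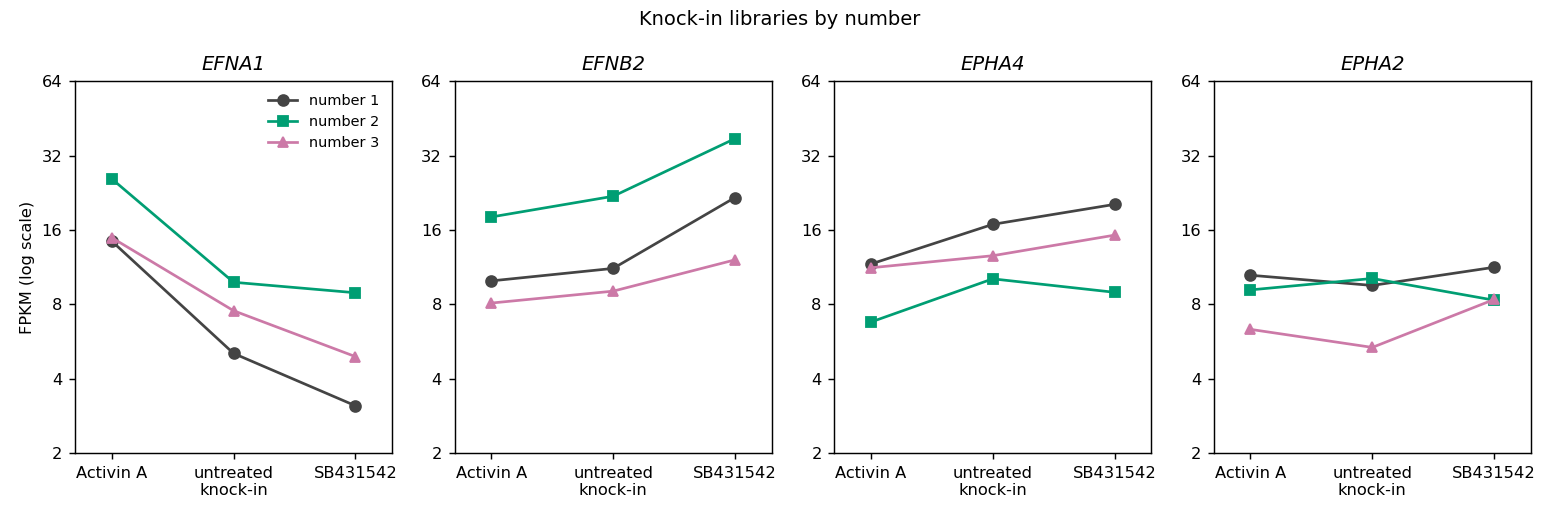
FPKM on a log scale of EFNA1, EFNB2, EPHA4 and EPHA2 in the knock-in libraries given Activin A, left untreated or given SB431542, with lines joining libraries of the same number. EFNA1 falls from left to right at each number, EFNB2 climbs at each number, and the order of the numbers is the same in all 3 groups for EFNA1, EFNB2 and EPHA4.

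The libraries of the knock-in groups carried a pattern by number that was as large as several of the group differences. Number 2 was the highest of its group in untreated, Activin A and SB431542 cells for EFNA1, EFNB1 and EFNB2, the 3 listed ephrins. For EFNB2 it was at 2.16, 2.00 and 2.22 times the mean of numbers 1 and 3, and for EFNA1 at 1.56, 1.76 and 2.22 times. EPHA4 had the opposite pattern, with number 2 the lowest at 0.69, 0.59 and 0.50 times that mean and number 1 the highest. EPHB2 followed another order, with number 1 at 1.37, 1.35 and 1.37 times number 3.

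In all, 6 of the 9 genes had the same highest number in the 3 knock-in groups, and 5 had the same lowest. Among 13696 genes tested in both tables, 38% did in each case, and 10.5% had number 2 highest in all 3 groups. The numbers of the knock-in groups match the names of 3 knock-in lines, and with 1 library for each line and group no test between lines was made here.

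Summed epithelial and trophectoderm markers were also highest at number 2 in each knock-in group. The summed level of 8 epithelial markers was 299, 709 and 220 FPKM in knock-in libraries 1, 2 and 3. It was 303, 611 and 204 in Activin A and 426, 1168 and 268 in SB431542 libraries. WT libraries had 126 to 192. Of 11 trophectoderm markers, CDX2 was at 0 in all 12 libraries, and KRT7, ELF5, EOMES and HAND1 were under 0.1 FPKM. The summed level was 125, 513 and 77.5 FPKM in knock-in libraries and 13.0 to 19.5 in WT libraries. Both lists hold KRT8 and KRT18, and KRT8, a keratin of simple epithelia, was at 3.34 to 8.50 FPKM in WT, 44.3 to 428 in knock-in, 35.3 to 334 in Activin A and 90.4 to 835 in SB431542 libraries. Its highest value in each knock-in group, at number 2, made up most of both sums there. EPCAM, an adhesion molecule of epithelia, was at 0.26 to 0.52 FPKM over all 12 libraries. In each knock-in group EFNB2 followed the order of both sums (number 2, then 1, then 3), and the part of these markers in the levels of EFNB2, EFNA1 and EPHA2 was not tested. Summed levels of 6 endothelial markers were at most 1.50 FPKM in any library.

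The rest of the family was read from a list of 14 receptors and 8 ephrins, of which 11 and 8 passed the filter on low values in each comparison. With EPHA2 left out between knock-in and WT, 0 of these were called in either comparison by limma without the block. Over all genes, 2.31% were called between knock-in and WT and 0.0929% between the treatments. At the same exclusion, 4 receptors and 4 ephrins had an unadjusted p under 0.05 between knock-in and WT (28.6% of all genes). Between the treatments 0 receptors and 4 ephrins did (12.8% of all genes). These counts include EPHA1 and EFNB2 between knock-in and WT and EFNA1 between the treatments, which were counted above. The remaining receptors, EPHA5, EPHA6, EPHA8, EPHA10, EPHB1 and EPHB6, reached at most 2.38 FPKM in any library.

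EPHA7, a receptor of A ephrins, had the largest difference from WT of the family: 0.48, 1.19 and 1.65 FPKM in WT and 3.49, 13.8 and 4.47 in knock-in libraries. The groups did not overlap (log2 difference 1.80, SE 0.45, limma adjusted p = 0.0540). It also shared number 2 as the highest of each knock-in group, with 11.2, 30.3 and 5.99 FPKM in Activin A and 1.89, 15.4 and 2.36 in SB431542 libraries. These groups overlapped (log2 difference 1.36, SE 0.79), with a limma adjusted p of 0.523 without and 0.0619 with the block.

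EPHA3, also a receptor of A ephrins, was at 28.4, 33.1 and 37.5 FPKM in WT and 32.9, 17.1 and 15.8 in knock-in libraries. The overlap came from knock-in library 1, and the log2 difference of -0.64 (SE 0.26) had a limma adjusted p of 0.164. Activin A libraries had 39.1, 23.7 and 13.4 FPKM and SB431542 libraries 26.3, 8.59 and 10.4. These groups overlapped, with Activin A at 1.49, 2.77 and 1.29 times the SB431542 level of the same number (log2 difference 0.75, SE 0.49, limma adjusted p = 0.565 without and 0.130 with the block).

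Between Activin A and SB431542, all 5 tested A ephrins had a log2 difference above 0, and 3 of them (EFNA1, EFNA2 and EFNA3) did not overlap, where 49.1% of all genes were above 0 and 9.19% did not overlap in that direction. EFNA2 was at 10.05, 10.1 and 10.8 FPKM with Activin A and 7.32, 6.24 and 5.31 with SB431542 (log2 difference 0.64, SE 0.12, limma adjusted p = 0.138, with the block 0.0632). For EFNA3 the values were 3.85, 4.37 and 6.23 against 3.04, 2.79 and 3.41 FPKM, with an adjusted p of 0.318 by limma. EFNA4 and EFNA5 overlapped between the treatments (log2 differences 0.25 and 0.22, limma adjusted p = 0.460 and 0.672). Of the 5, EFNA1 was called with the block and 0 were called without it, where 0.707% and 0.0929% of all genes were. The summed FPKM of the class was 63.2 to 71.4 with Activin A and 40.5 to 48.8 with SB431542. EFNA1, EFNA3 and EFNA4 are neighbours on chromosome 4, with gaps of 36499 bp and 11440 bp between them.

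The B ephrins were mixed in direction, with EFNB1 above 0 and EFNB2 and EFNB3 below. EFNB3 was at 17.9, 20.2 and 19.9 FPKM with Activin A and 23.6, 24.2 and 26.2 with SB431542 (log2 difference -0.33, SE 0.08, limma adjusted p = 0.197, with the block 0.0649). Summed over the class the level was 155 to 192 FPKM with Activin A and 156 to 191 with SB431542. Between knock-in and WT, 3 of the 5 A ephrins had a difference above 0 and 2 below it, and all 3 B ephrins were above 0. EFNA2, at 9.12 to 9.80 FPKM against 4.63 to 7.90 in WT, and EFNA5, at 22.2 to 30.2 against 12.8 to 21.7, were higher without overlap, as 19% of all genes were (log2 differences 0.56 and 0.50, limma adjusted p = 0.102 and 0.159). EFNA3 was at 3.79, 2.95 and 4.32 FPKM against 5.95, 5.23 and 8.18 in WT libraries (log2 difference -0.66, SE 0.20, limma adjusted p = 0.0825), lower without overlap as 16.7% of all genes were. EFNA4, at 4.83 to 4.96 FPKM against 4.85 to 6.82 in WT, overlapped (log2 difference -0.26, limma adjusted p = 0.316).

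**Figure D4:**
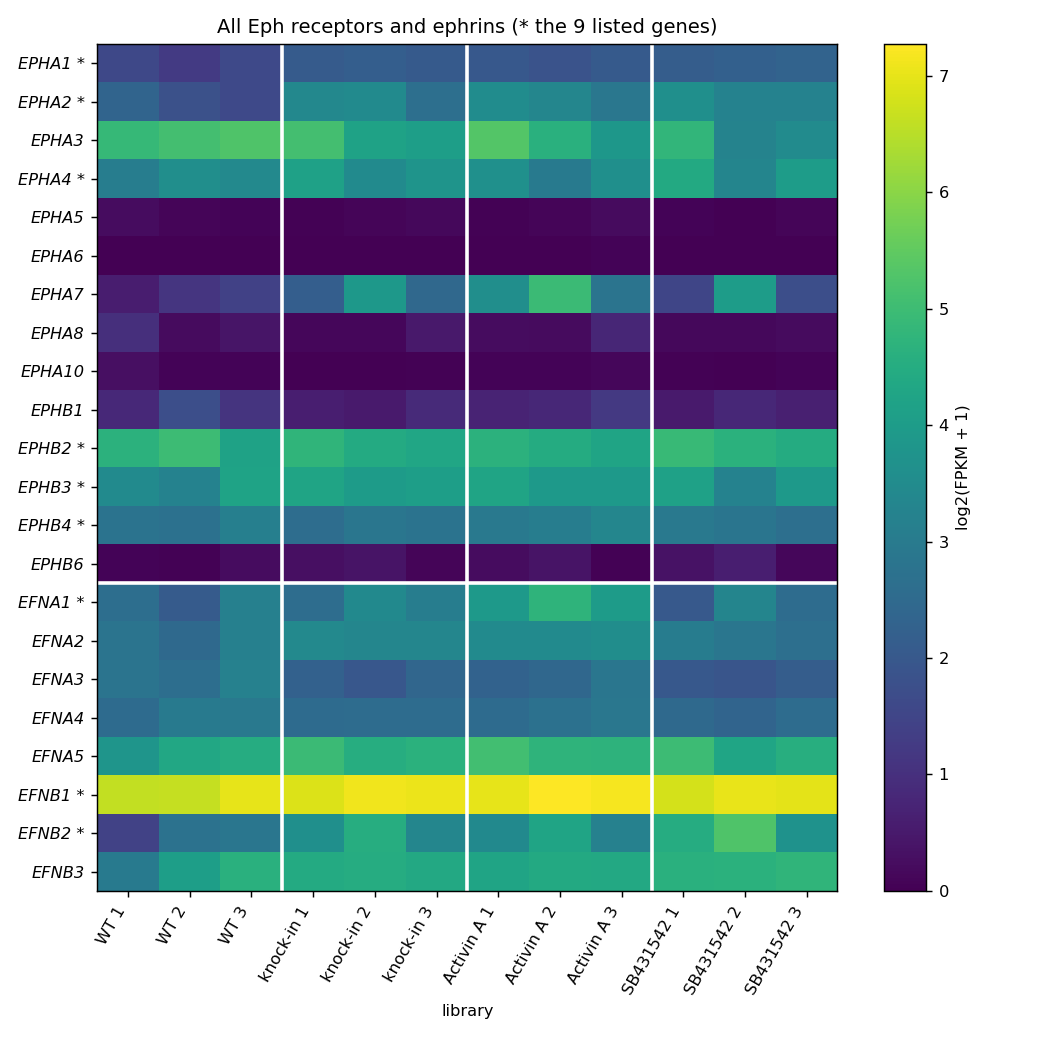
log2(FPKM + 1), as colour, of 14 Eph receptors (above the white line) and 8 ephrins (below it) in 12 libraries grouped by WT, knock-in, Activin A and SB431542; asterisks mark the 9 listed genes. EFNB1 is the brightest row in all 12 libraries, and the rows of EPHA7, EFNA1 and EFNB2 change in colour between groups and between numbers.

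Downstream genes of the pathway were counted from lists. Of 33 identifiers tested for forward signalling, such as SRC family kinases and adaptors, limma called 0 in either comparison, with or without the block. Of all genes, 2.31% were called between knock-in and WT (1.66% with the block) and 0.0929% between the treatments (0.707% with the block). At an unadjusted p under 0.05 there were 7 between knock-in and WT, against 28.6% of all genes, and 5 between the treatments, against 12.8%. Their median log2 differences were 0.03 and -0.03.

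For reverse signalling and PDZ partners of B ephrins, 0 of 10 tested were called in either comparison, where 2.31% and 0.0929% of all genes were. In each comparison 4 had an unadjusted p under 0.05, where 28.6% and 12.8% of all genes did. Between knock-in and WT, 2 had a limma adjusted p under 0.05 with a difference under the fold threshold, and 7.22% of all genes passed that p. They are named after their values were seen: GRIP2, a PDZ scaffold (log2 difference -0.96, adjusted p = 0.0286), and SDCBP, the syntenin that binds the tail of B ephrins (-0.66, adjusted p = 0.0484), both lower in knock-in by limma. The 6 genes of this list that did not overlap with WT were all lower, as 16.7% of all genes were, and the list's median was -0.18.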

How the data were processed

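Gene expression was taken as deposited, in FPKM, in a table of knock-in and WT libraries and a table of Activin A and SB431542 libraries. The authors computed FPKM with StringTie 1.3.3 on the annotation of Ensembl release 97, from reads trimmed by Trim Galore and mapped by HISAT2 2.0.4 to the pig assembly Ssc11.1. Their read counts and DESeq2 results were not used here, so absolute depth is unknown and no counting error is given.

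Genes entered a test when 3 or more of its 6 libraries reached 0.1 FPKM, and log2(FPKM + 1) was tested within each table with limma 3.58.1 (R 4.3.3) and a variance trend. Calls needed an absolute log2 difference of 1 or more and a p that was 0.05 or less after Benjamini-Hochberg adjustment over all genes tested. Library number as a block was an alternative. Deviations from group means of Activin A and SB431542 libraries of the same number correlated at 0.400, 0.587 and 0.535, so the numbers, which the study gives to its knock-in lines, were taken to pair them. Those of different numbers correlated at -0.499 to -0.146. Values below 0 between different numbers follow on average from centring each group when the same-number values are above 0, so they are no separate evidence. Labels do not say whether libraries within WT, Activin A or SB431542 came from separate cultures, so p-values measure only the spread between these libraries.

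The 9 genes and all gene lists were chosen with earlier results of these data known. Named were the 9 genes, other family members, called genes of other lists, genes of the activin check and the 5 genes most like EPHA2. Other genes of the lists that are named without a call, such as GRIP2, SDCBP, SOX2, KRT18, EPCAM and markers at or near 0, fall outside this rule and were chosen after their values were seen. Symbols were those of the files for 17451 identifiers and of a gene name table for 965 more. In simulated data limma recovered 186 of 200 genes changed by a log2 difference of 2 with 1 false call between knock-in and WT, and 192 with 2 between the treatments (178 with 2 under the block). The simulated noise was independent for each library, with no effect shared by number, and genes of low level were not changed. These counts therefore cannot show which fit suits the real treated libraries, or how low genes are recovered. Alternatives were other pseudocounts, filters, scalings (TPM and median ratio), no variance trend, the block and leaving out each library. No nucleotide or protein sequences were used here. Figures were drawn with matplotlib 3.10.9.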

Additional observations from a re-analysis of the deposited data

How the results depend on the processing

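Of 238 alternative fits of the 17 tested single-gene results, 234 kept direction and call, a call needing both the p and the fold threshold. The limma adjusted p alone crossed 0.05 in 5 fits: EPHA1 between knock-in and WT with a filter of 1 FPKM (0.0456) and without the variance trend (0.0419), EPHB3 without WT library 3 (0.0324), and, with the block between the treatments, EFNA1 and EFNB2 (0.0168 and 0.0449). The untested EPHA2 difference from WT was 1.11 to 1.56 over its alternatives. Leaving out single libraries, EPHB2 between knock-in and WT ranged from -0.32 to 0.0806 (above 0 without WT library 2), and EPHA2 between the treatments from -0.25 to 0.0769 (above 0 without Activin A library 3, and 0.0232 without SB431542 library 1). EFNA1 between the treatments passed only with the replicate block; over its alternatives the log2 difference was 1.29 to 1.92 and the limma adjusted p 0.0168 to 0.401. EPHA4 between the treatments was -0.26 without SB431542 library 1, -0.28 without Activin A library 2 and -0.81 without SB431542 library 2. EFNB2 between knock-in and WT ranged from 1.03 to 1.74 (limma adjusted p 0.067 to 0.217). EPHA1 ranged from 0.51 to 0.89 (0.0419 to 0.164), never past the fold threshold.

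Of the 9 genes, 1 was called between the treatments with the replicate block and 0 in every fit without a single library. Of the 8 tested between knock-in and WT, 0 were called in every alternative. Numbers did not pair knock-in with WT libraries (same-number correlations -0.0182, 0.00865 and 0.0936), and the block gave 232 calls there.

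Over all genes, 324 were called between knock-in and WT; there were 1012 by adjusted p alone, 538 and 501 with pseudocounts of 0.1 and 0.01, 199 with no filter, and 147 to 440 without single libraries (147 without knock-in 1, 150 without knock-in 2, 174 without WT 1, 440 without WT 3). Between the treatments 13 were called, with 99 under the replicate block, 8 with a pseudocount of 0.01, 5 with no filter, 5 with a filter of 1 FPKM, 7 without the variance trend and 0 to 5 without single libraries. The cause was not tested. The median likeness of 5 genes to EPHA2, 0.948 over 12 libraries, was 0.969 within the knock-in and WT libraries, 0.637 within the treated libraries and 0.951 with a pseudocount of 0.1. Depth was lowest in WT libraries and limits the low genes most.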

Other observations

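The 5 genes whose log2(FPKM + 1) was most like that of EPHA2 over 12 libraries, among 10495 genes compared, were COQ7, PRMT1, MYDGF, HAPLN3 and OAZ1, with Pearson r of 0.953, 0.952, 0.948, 0.947 and 0.946. In all, 51 genes had r of at least 0.9. The points share 3 WT libraries at the low end: HAPLN3 was at 0.56 to 1.41 FPKM in WT and 2.38 to 4.24 in the 9 knock-in libraries, and COQ7 at 16.5 to 20.8 and 24.3 to 31.9. Within the 6 Activin A and SB431542 libraries r of these genes with EPHA2 was 0.441 to 0.647. Of the family, EPHA1 had r = 0.817, EFNB2 0.682 and EFNA3 -0.820 over 12 libraries, and -0.133, 0.311 and -0.641 within the 6 treated libraries. NANOG had r = 0.333 with EPHA2 over 12 libraries, 0.701 within the 6 knock-in and WT libraries and -0.332 within the 6 treated libraries. These correlations are descriptions over libraries of separately normalized tables, with no test.

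ID1, a target of BMP and SMAD signalling in the activin check, was at 1.28 to 1.87 FPKM in WT, 5.13, 10.5 and 4.86 in knock-in libraries 1, 2 and 3, 18.0, 24.5 and 13.5 with Activin A and 4.31, 15.3 and 4.34 with SB431542. Number 2 was the highest in each knock-in group, as it was for EFNA1. Between knock-in and WT, limma without the block called ID1 higher (log2 difference 1.56, adjusted p = 0.0231). Of the 5 tested genes of the activin check, 3 were called higher with Activin A than with SB431542, where 0.0929% of all genes were called. With the block 3 were called as well (NANOG, SMAD7 and LEFTY2), against 0.707% of all genes. LEFTY2, an inhibitor of Nodal, was listed at 0 in all 3 SB431542 libraries and was at 1.37, 0.78 and 1.20 FPKM with Activin A.

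Among the other marker lists, the summed level of 8 neural markers was 241 to 290 FPKM in WT, 270 to 358 in knock-in, 265 to 403 in Activin A and 202 to 296 in SB431542 libraries. Within that list limma without the block called PAX6 lower in knock-in than in WT, at a mean of 2.94 against 16.6 FPKM. The log2 difference was -2.17 (limma adjusted p = 0.0403), and PAX6 was not called with the block. NES went the other way, at a mean of 136 FPKM in knock-in against 78.1 in WT. Its log2 difference of 0.80 (limma adjusted p = 0.0192) was under the fold threshold. Of the 6 tested neural markers, 1 was higher and 1 lower in knock-in without overlap. Without the replicate block limma called 0 of 10 tested fibroblast markers between the treatments, and with it 2, where 0.707% of all genes were called. These were the collagens COL1A2 and COL3A1, higher with Activin A (log2 differences 1.59 and 3.08, limma adjusted p = 0.0236 and 0.0121 with the block, 0.0932 and 0.201 without). Without the block 5 of the 10 were higher with Activin A and 0 lower at an unadjusted p under 0.05, against 12.8% of all genes in either direction, and the list's median log2 difference was 0.37 against -0.004 over all genes. Of the other marker lists, NANOG was called higher (3.18) and ACTA2 lower (-1.13) with Activin A than with SB431542, with and without the block. GATA2 and TFAP2C were called higher (2.28 and 1.51) and KRT8 and LIN28A lower (-1.21 and -1.55) with the block alone; without it their limma adjusted p was 0.155, 0.389, 0.653 and 0.273. COL3A1 was at 6.57 to 42.9 FPKM with Activin A and 0.0156 to 2.73 with SB431542. Between knock-in and WT, limma without the block called LIN28A (2.08), NANOG (2.06), DCN (1.49), ACTA2 (2.61), PDGFRB (1.64), KRT8 (4.13) and TFAP2A (1.56) higher. PAX6 was called lower, as given above, and 2.31% of all genes were called in either direction. With the block ANPEP (1.29) was called higher as well and KRT8 was not called, where 1.66% of all genes were. The part of these markers in the Eph receptor and ephrin values of the same libraries was not tested.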
